A study of Mus musculus with 24 samples.

Results

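SpiB is an Ets family transcription factor that mature B cells share with plasmacytoid dendritic cells (pDCs), and it binds the same GGAA-centred DNA sequence as its close relative PU.1. The comparison described here is the effect of SpiB loss before and after activation of lymph node B cells. For each gene, log2 (SpiB KO/control) was estimated in naive cells and in cells cultured for 48 h with CD40L and IL-4, and the first was subtracted from the second. A gene that needs SpiB only before activation is lower in naive SpiB KO cells, does not pass the test in the cultures, and has a positive difference that passes the test itself. Of the 27179 genes counted, 13444 were measured at 0.5 CPM (read counts scaled to library size) or more in at least 2 of 16 libraries and were tested, and 7 met these 3 conditions.

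The 8 libraries compared were 2 control and 2 SpiB KO libraries at each stage, out of 24 in the series. Control mice were Cd23T/+, that is, they carried a bacterial artificial chromosome (BAC) in which sequences of Cd23, the gene Fcer2a, drive Cre in B cells past their earliest stages. SpiB KO mice were Spi1fl/fl Cd23+/+ Spib-/-: they had the germline Spib null allele and floxed Spi1 alleles, and no Cre. The Cre transgene and the floxed Spi1 alleles therefore differed between these groups together with Spib, and the 3 cannot be told apart in this contrast. A contrast without that difference sets the double knockout, PU.1 SpiB DKO, with the alleles Spib-/- Spi1fl/fl Cd23T/+, beside the conditional PU.1 cKO, Spi1fl/fl Cd23T/+, with 2 libraries of each at each stage. It is given below for libraries that the subtraction did not use, and so is SpiB KO against control in a further culture with LPS and IL-4, which has the same difference in alleles as the main contrast. All mice were C57BL/6, matched for age and sex within an experiment, and the study's sort kept CD3- B220+ CD138- cells. Library totals were 14231188 to 18194629 counts in the 4 naive libraries and 9598674 to 11434235 counts in the 4 cultured ones. The counts of the 2 stages were deposited in separate tables. A gap in level between naive and cultured libraries therefore cannot be told apart from the table, unlike an effect within a stage. The labels of the cultured libraries say only that the B cells were activated, and CD40L and IL-4 were taken from the protocol given with them and from the study's methods. The study describes the replicates as biological, and the labels do not tie them to animals, so the p-values measure the spread between these libraries.

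CD40L and IL-4 imitate signals that a helper T cell gives to a B cell, and turn a small resting cell into a dividing one. CD40, the receptor of CD40L, activates NF-kB. PU.1 is made in B cells beside SpiB and can occupy many of the same sites, often with the partners IRF4 or IRF8. pDCs are interferon-producing cells in whose development SpiB takes part, and they carry B220 on their surface, the antigen used here to sort B cells.

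The targeted gene followed its label in every library. Spib was at 1577 and 1389.7 CPM in the naive control libraries and at 90.6 and 84.9 CPM in naive SpiB KO. In the cultures it was at 376.9 and 501 CPM in control and at 35.1 and 23.2 CPM in SpiB KO. Spib thus fell by 4.08 ± 0.20 (SE) on the log2 scale in naive cells and by 3.92 ± 0.21 in the cultures, and these effects differed by 0.16 ± 0.26 (adjusted p = 0.97). Spi1, which encodes PU.1, was at 166 and 178 CPM in naive control and 173 and 172 CPM in naive SpiB KO, and in the cultures at 80.3 and 103 CPM against 104 and 87.3 CPM. Its effects of SpiB loss were 0.00 ± 0.17 and 0.07 ± 0.17, neither of which passed the test (adjusted p = 1 for both). With the floxed alleles and Cre, Spi1 was at 63.5 and 56.7 CPM in naive PU.1 cKO and at 107 and 115 CPM in naive DKO (0.89 ± 0.17, adjusted p = 0.00283), so more Spi1 RNA was left in the naive DKO libraries.

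SpiB loss changed many more genes in naive cells than after culture. At an adjusted p under 0.15 and a fold over 1.5, 1124 genes (8.36% of those tested) passed in naive cells, 713 higher (5.3%) and 411 lower (3.06%) in SpiB KO. In the CD40L + IL-4 cultures 47 genes passed (0.35%), 24 higher and 23 lower. The median SE of a gene's effect was 0.212 in naive cells and 0.214 in the cultures. The difference between the stages itself passed for 200 genes (1.49%), of which 187 (1.39%) had a lower effect in the cultures than in naive cells and 13 (0.0967%) a higher one.

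By these 3 tests together, 172 genes were higher only in naive SpiB KO and 7 were lower only there. Another 25 genes changed the same way at both stages, 4 changed in opposite directions, and 6 changed only in the cultures with the difference called. For 10 genes the difference passed and neither effect did. The largest group could not be placed: 916 genes (522 higher and 394 lower) passed in naive cells, not in the cultures, and had a difference that did not pass, and 12 genes were in the same position after passing only in the cultures. Most genes called in naive cells alone are therefore not shown to be particular to that stage.

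**Figure D1:**
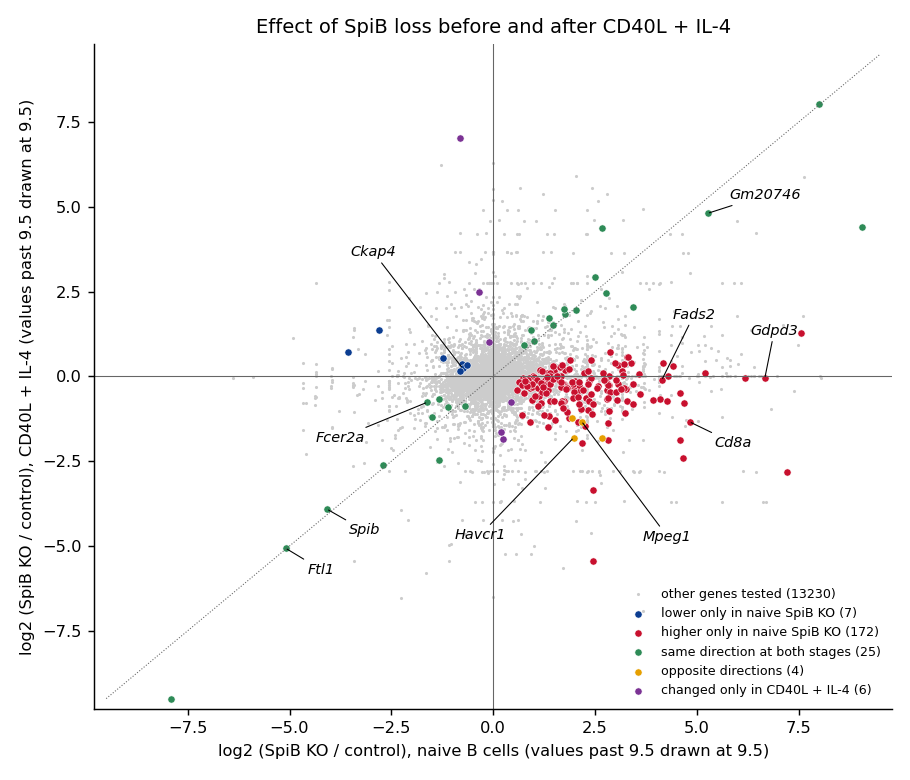
Each point is one of the 13444 genes tested, with log2 (SpiB KO/control) in naive B cells on the horizontal axis and in CD40L + IL-4 cultures on the vertical axis, 2 libraries per group. The 172 genes higher only in naive SpiB KO lie to the right along the horizontal line, the 25 genes that changed the same way at both stages follow the dotted diagonal, and the 7 genes lower only in naive SpiB KO lie left of zero; thin lines join gene names to their points.

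The genes lower only in naive SpiB KO were Ckap4, Ahdc1, Dgka, Rfx1, Hic1, Gm17739 and a gene without a symbol. Of these, 4 had at least 10 CPM in naive cells. Ckap4 encodes a membrane protein of the endoplasmic reticulum sheets, Ahdc1 an AT-hook DNA-binding protein, Dgka the diacylglycerol kinase alpha, which removes diacylglycerol after antigen receptor signalling, and Rfx1 a winged-helix transcription factor. They lie at chr10:84526305-84533888, chr4:133011265-133078110, chr10:128720131-128745084 and chr8:84063564-84097001 of GRCm38, in that order.

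For Dgka, whose start sites lie several kilobases apart in the RefSeq table of GRCm38.p6, the 250 bases before a start are shown for the outermost start and for an internal one, to put the Ets letters of both beside its values. Capitals mark the joint Ets-IRF element, GGAA and GAAA with 2 bases of any kind between them, in the first sequence (here read on the opposite strand), and GAGGAA, a usual PU.1 and SpiB core, in the second. They cover chr10:128745085-128745334 and chr10:128737613-128737862, both on the minus strand and outside annotated exons. These starts were picked because they hold an element. The other starts listed for Dgka held neither element in the 250 bases before them and are not shown.
Dgka outermost start: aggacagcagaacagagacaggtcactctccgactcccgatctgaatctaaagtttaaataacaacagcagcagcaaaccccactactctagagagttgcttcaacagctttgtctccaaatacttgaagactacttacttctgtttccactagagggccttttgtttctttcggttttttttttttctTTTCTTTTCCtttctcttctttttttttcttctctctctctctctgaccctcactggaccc
Dgka internal start: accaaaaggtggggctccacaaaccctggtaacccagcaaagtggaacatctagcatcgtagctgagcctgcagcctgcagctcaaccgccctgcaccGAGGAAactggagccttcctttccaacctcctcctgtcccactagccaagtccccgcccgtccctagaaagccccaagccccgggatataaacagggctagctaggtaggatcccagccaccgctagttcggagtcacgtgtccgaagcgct

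Searched on both strands of 300 bases around each start (250 before and 50 after), GAGGAA was present in 3 of the 9 promoters listed for 5 of these 7 genes, those of Ckap4, Rfx1 and Dgka, and in 26.8% of the 12821 promoters of tested genes. The joint element was present in 1 of the 9 and in 2.43% of all. Among the 411 genes lower in naive SpiB KO, 29.5% of 404 promoters held GAGGAA, against 29.9% of 686 for the 713 genes that were higher. These shares lay close to that over all promoters, and a match is a description of the letters and not a bound site.

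Ckap4 had the smallest adjusted p of the 7. It was at 64.9 and 82.1 CPM in naive control and at 41.9 and 45.4 CPM in naive SpiB KO, and at 143 and 156 CPM in cultured control and at 177 and 175 CPM in cultured SpiB KO. Its level was thus lower in both naive SpiB KO libraries than in either naive control, and the culture order was the opposite one. The effect was -0.75 ± 0.16 in naive cells (adjusted p = 0.0096) and 0.24 ± 0.15 in the cultures (adjusted p = 1), a difference of 0.99 ± 0.22 (adjusted p = 0.0467).

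Rfx1 was at 53.7 and 62.1 CPM in naive control and at 33.9 and 32.2 CPM in naive SpiB KO, and its 4 cultured libraries lay between 29.1 and 35 CPM. In the cultures both SpiB KO libraries (35 and 32.4 CPM) stood slightly above both controls (31.7 and 29.1 CPM) and the effect did not pass (adjusted p = 1). The difference between the stages was 0.96 ± 0.25 (adjusted p = 0.131). Dgka was at 104 and 122 CPM against 68.2 and 77.3 CPM in naive cells, and at 35.6 and 36.3 CPM against 53.2 and 37.5 CPM in the cultures, a difference of 0.97 ± 0.26 (adjusted p = 0.146). Ahdc1 was at 64.4 and 88.7 CPM against 46.6 and 43.9 CPM, and then at 28.7 and 26.5 CPM against 43.0 and 28.6 CPM, a difference of 1.13 ± 0.28 (adjusted p = 0.102). For both genes 1 of the 2 cultured SpiB KO libraries was near the controls and the other above them.

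The remaining 3 were low. Hic1, a zinc finger repressor, was at 0.9 and 0.438 CPM in naive control, at 0 and 0.171 CPM in naive SpiB KO, and at 1.25 to 5.05 CPM in the 4 cultured libraries. Gm17739 was at 6.53 and 5.98 CPM against 2.90 and 2.45 CPM in naive cells and below 2.2 CPM in the cultures, and the gene without a symbol did not exceed 1.75 CPM in any of the 8 libraries. With 2 libraries per group an exact permutation test of a single gene cannot go below p = 0.333 (two-sided), so these calls rest on the spread that the fit shares across genes.

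**Figure D2:**
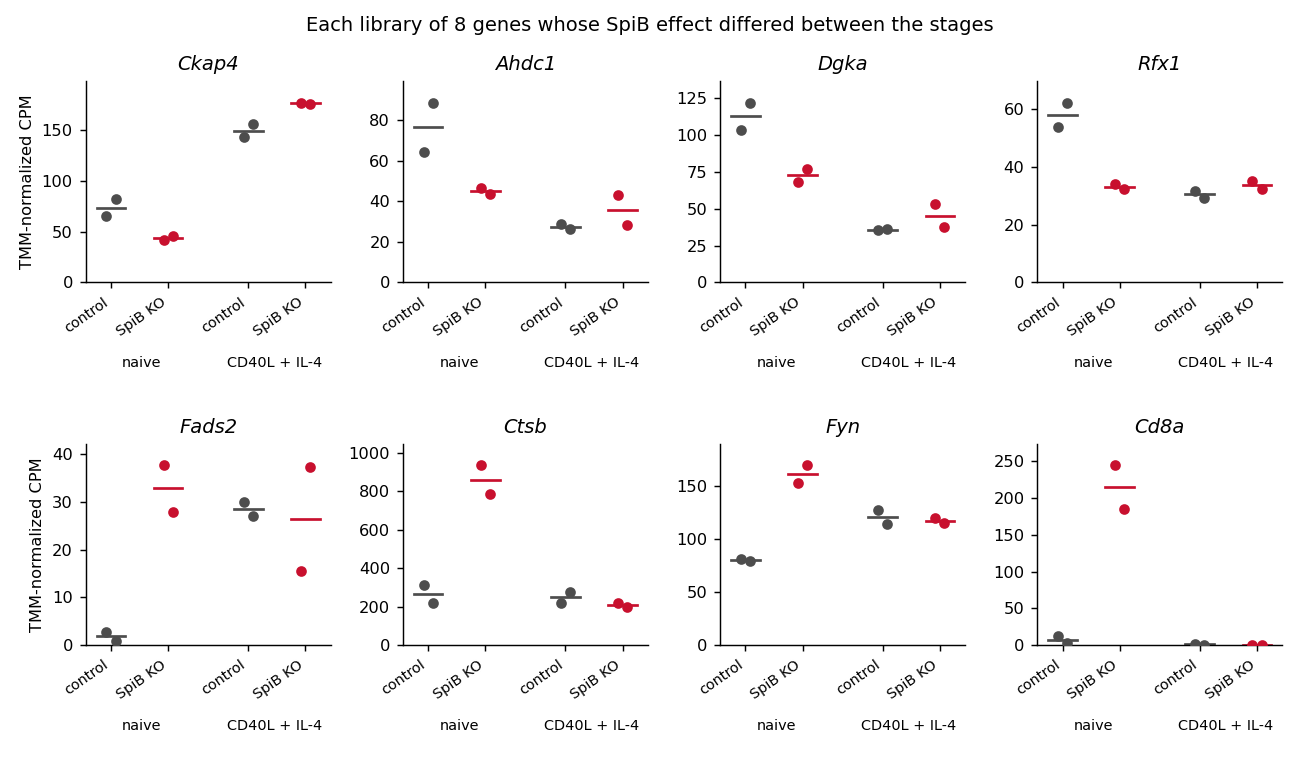
TMM-normalized CPM on the vertical axis in each library (points) and the mean of each pair (lines), with naive control and SpiB KO on the left and CD40L + IL-4 control and SpiB KO on the right of each panel. Ckap4, Ahdc1, Dgka and Rfx1 are lower in naive SpiB KO alone, and Fads2, Ctsb, Fyn and Cd8a are higher in naive SpiB KO alone, with Fads2 and Fyn expressed in all cultured libraries and Cd8a under 2 CPM there.

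In libraries that the subtraction did not use, 1 of these 7 genes was lower in naive DKO than in naive cKO, where 2.77% of all genes tested were called lower. Since Spi1 RNA also differed between these naive groups, loss of SpiB and the level of PU.1 cannot be told apart in this contrast. That gene was Ckap4, at 156 and 165 CPM in naive PU.1 cKO and at 63.3 and 64.6 CPM in naive PU.1 SpiB DKO, an effect of -1.33 (adjusted p = 3.59e-05). In the CD40L + IL-4 cultures Ckap4 was at 380.4 and 382 CPM against 406 and 294 CPM, an effect of -0.13 (adjusted p = 0.776). Ckap4 was therefore lower in both naive contrasts and passed the test in neither CD40L + IL-4 contrast. For the other 6 genes the naive DKO against PU.1 cKO effect did not pass, and the median over all 7 was -0.152.

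In LPS + IL-4 cultures, where 250 genes (1.83%) passed, none of the 7 was lower in SpiB KO and 2 were higher, Ahdc1 by 0.77 ± 0.19 (adjusted p = 0.059) and Hic1 by 1.56 ± 0.41 (adjusted p = 0.0868). Over all genes, 1.38% were higher and 0.446% lower there. Same-numbered LPS + IL-4 libraries deviated together, and a fit with replicates as a block called 443 genes (3.24%), with Ahdc1 and Hic1 again the only 2 of the 7 called. Ckap4 was not called in these cultures, with 0.28 ± 0.13 (adjusted p = 0.607).

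The wider group of 411 genes lower in naive SpiB KO had small effects, with a median of -0.867 against 0.0247 for all genes tested. Their levels were substantial, with a median of 42.2 CPM in naive control and 54.3 CPM in cultured control. In the cultures 10 of the 411 were called lower and none higher, against 23 lower and 24 higher of all 13444 genes tested. Their median effect was -0.195, and 85.2% of the effects were negative, against 51.6% of all genes tested. The same 411 had a median of 0.0158 in LPS + IL-4 cultures. There 22 were lower (5.35%) and 3 higher (0.73%), against 0.446% and 1.38% of all genes. With the replicate block 32 were lower and 6 higher, against 0.855% and 2.38% of all genes. In naive DKO against cKO the median of the 411 was -0.109. There 58 were lower (14.1%) and 8 higher (1.95%), against 2.77% and 8.81% of all genes.

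These 411 genes differed from the rest in transcript length and differed between the 2 naive control libraries. The longest GENCODE transcript had a median of 5.18 kb for the 406 of them with a length, and was over 5 kb for 52%, against 3.17 kb and 20.6% over all genes tested. When the genes were ordered by length into 5 equal groups, 7.97% of the group with the longest transcripts were lower in naive SpiB KO, against 1.33% of that with the shortest, whereas the shares of higher genes were 4.73% and 5.76%. The ratio of the naive control libraries to each other had the same slope: its median log2 (replicate 1/replicate 2) fell from 0.16 in the shortest group to -0.101 in the longest, and was -0.477 over the 411 genes. The number of lower genes depended on single libraries of both naive groups. It rose without naive control replicate 1, and fell without naive control replicate 2 or without either naive SpiB KO library. Naive control replicate 1 also held more ribosomal RNA, with 3.62% of its counts from Rn45s. The share was 0.185% in naive control replicate 2 and 0.574% and 0.255% in naive SpiB KO. The part of length and of single naive libraries in the decreases was not tested.

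**Figure D3:**
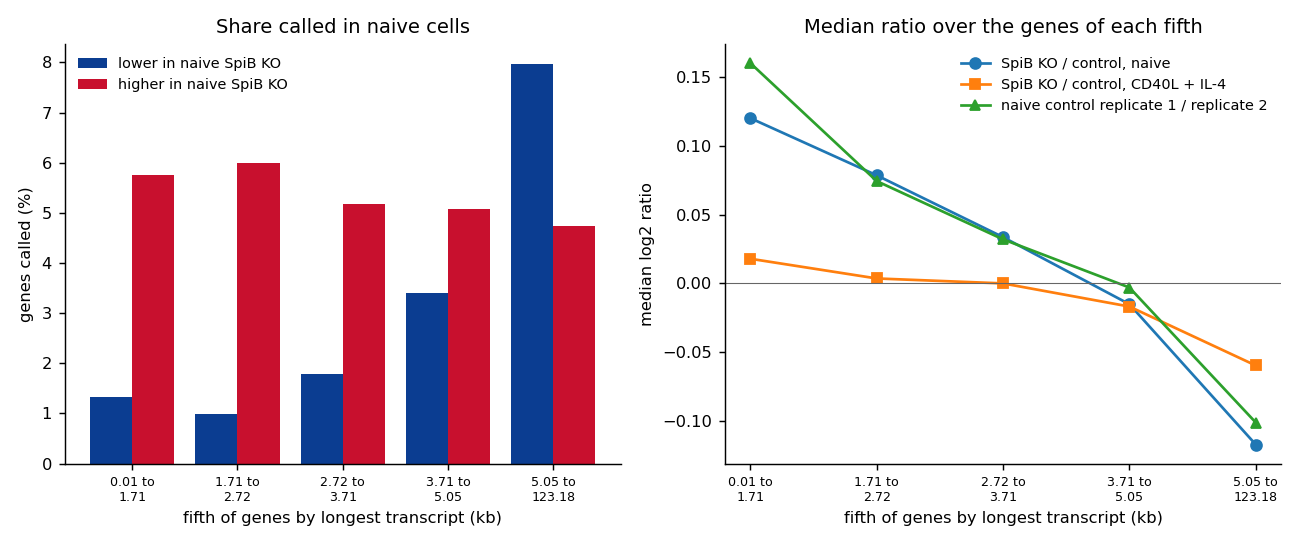
Genes tested in 5 equal groups by the length of their longest transcript (kb on the horizontal axis). Left, the share (%) called lower or higher in naive SpiB KO, which rises from 1.33% to 7.97% for lower genes; right, the median log2 ratio of SpiB KO to control in naive cells and in CD40L + IL-4 cultures, and of naive control replicate 1 to replicate 2.

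The 7 genes depended on single libraries as well. Without naive control replicate 1, 109 genes met the conditions, 6 of them among the 7, and without replicate 2, 5 genes did, none of them among the 7. Without naive SpiB KO replicate 1 only Igf2bp2 met them, and without CD40L + IL-4 control replicate 1 it was 11 genes, none among the 7. Without any of the other 4 libraries 1 to 13 genes met them, with Ckap4 in each of these sets. Ckap4 was the only 1 of the 7 with an adjusted p under 0.05. With replicate numbers as a block in the fit, 153 genes met the conditions, with all 7 among them. The number of genes lower only in naive SpiB KO thus depended on whether same-numbered libraries were treated as paired.

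Genes higher only in naive SpiB KO made up most of the 200 differences. Over the 172 genes the median effect was 1.93 in naive cells and -0.265 in the cultures, values that the calls themselves select. Their median level rose from 3.79 CPM in naive control to 17.4 CPM in naive SpiB KO, and stood at 7.26 and 6.49 CPM in cultured control and SpiB KO. Of the 172, 102 had at least 5 CPM in the cultures, 51 had 1 to 5 CPM and 19 had less than 1 CPM. For the 102, the median was 8.7 CPM in naive control, 25.7 CPM in naive SpiB KO, and 20.1 and 18.2 CPM in cultured control and SpiB KO.

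The fatty acid desaturase genes Fads1, Fads2 and Fads3, neighbours on chromosome 19, were all in this group. Fads2, the delta-6 desaturase, was at 2.85 and 0.875 CPM in naive control and at 37.6 and 28.0 CPM in naive SpiB KO. In the cultures it was at 30.1 and 27.0 CPM in control and at 15.4 and 37.4 CPM in SpiB KO. Control and SpiB KO overlapped after culture (4.14 ± 0.46 in naive cells against -0.11 ± 0.37 in the cultures, difference -4.24 ± 0.59, adjusted p = 0.00239). Fads1, the delta-5 desaturase, was at 1.80 and 1.09 CPM against 6.61 and 5.25 CPM in naive cells and at 35.9 to 52.7 CPM in all 4 cultured libraries, a difference of -2.25 ± 0.33 (adjusted p = 0.00349). Fads3 was at 4.05 and 1.02 CPM against 53.1 and 46.3 CPM and stayed under 1.7 CPM in the cultures (difference -4.28 ± 0.79, adjusted p = 0.0185).

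Lysosomal genes formed the pathway list with the most members in the group. Of 24 lysosome and protease genes tested, 8 were higher in naive SpiB KO and none lower, against 5.3% and 3.06% of all genes. For 6 of them (Cd68, Ctsb, Ctsl, Grn, Npc1 and Psap) the difference was called lower, and none passed in the cultures. The median effect of the list was 0.21 in naive cells and -0.0563 in the cultures. Ctsb, the protease cathepsin B, was at 310 and 217 CPM in naive control, at 935 and 783.5 CPM in naive SpiB KO, and between 200.2 and 276 CPM in the cultures (difference -1.94 ± 0.24, adjusted p = 0.00078). Grn, which encodes progranulin, was at 200.3 and 123 CPM against 674 and 612 CPM in naive cells and between 228 and 311 CPM in the cultures (difference -2.31 ± 0.25, adjusted p = 0.000366). Psap, the precursor of the saposins, was at 1588 and 1329.5 CPM against 2825 and 2573 CPM, with overlapping groups between 1183 and 1526 CPM in the cultures (difference -0.94 ± 0.23, adjusted p = 0.087). These genes were highly expressed at both stages, and within naive cells the SpiB KO libraries stood above the controls. Ctsl, cathepsin L, differed from that pattern, as it went from 43.1 and 14.3 CPM to 270.0 and 264 CPM in naive cells and was under 3.3 CPM in the cultures.

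Signalling and surface receptors were also in the group. Fyn, a Src family kinase, was at 81.2 and 79.7 CPM in naive control and at 152 and 169 CPM in naive SpiB KO. In the cultures all 4 libraries lay between 114 and 127 CPM. Its groups were well apart in naive cells and overlapped after culture (0.9997 ± 0.12 against -0.04 ± 0.12, difference -1.04 ± 0.17, adjusted p = 0.00632). The interferon receptor chain gene Ifnar2 was at 58.5 and 66.5 CPM against 125 and 123 CPM in naive cells and between 53.0 and 68.9 CPM in the cultures (difference -0.999 ± 0.23, adjusted p = 0.0617). The sphingosine-1-phosphate receptor gene S1pr3 was at 9 and 8.10 CPM against 16.7 and 22.1 CPM, and between 61.2 and 83.0 CPM in the cultures (difference -1.44 ± 0.24, adjusted p = 0.0102). Cd44, a hyaluronan receptor that activated lymphocytes raise, was at 118 and 98.5 CPM against 202 and 182 CPM, and between 463 and 670.4 CPM in the cultures (difference -1.03 ± 0.22, adjusted p = 0.0421). For S1pr3 and Cd44 the naive SpiB KO level was below that of every cultured library, a gap between stages that cannot be told apart from the deposited table.

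Among genes with at least 10 CPM in a naive group and no overlap there, Gdpd3 had the largest difference. Gdpd3, a member of the glycerophosphodiester phosphodiesterase family, was at 0.45 and 0.146 CPM in naive control, at 30.8 and 30.9 CPM in naive SpiB KO, and under 0.42 CPM in the cultures (difference -6.72 ± 1.25, adjusted p = 0.021). In naive cells it was higher still in PU.1 cKO, which has SpiB, at 157 and 150.0 CPM, and was at 26.8 and 45.8 CPM in PU.1 SpiB DKO. In naive cells Gdpd3 was thus raised in each of the 3 genotypes with floxed Spi1 alleles, and was the 1 gene of the 172 that was called lower in naive DKO than in cKO, so that the increase in SpiB KO and the floxed alleles cannot be told apart for it. In the CD40L + IL-4 cultures Gdpd3 was at 29.0 and 28.8 CPM in PU.1 cKO and at 0 in both PU.1 SpiB DKO libraries. Others with large differences, chosen by the same rule of level and no overlap, were Ppfia4, a liprin (-4.18), and Pdzd4, a PDZ domain gene (-3.85). Eepd1, of the endonuclease and phosphatase domain family, was chosen by that rule too (-3.74).

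The increases in naive cells were seen again where both groups carried Cre and floxed Spi1. More Spi1 RNA was left in naive DKO than in naive cKO, so loss of SpiB and the level of PU.1 cannot be told apart for these genes either. Of the 172 genes, 156 (90.7%) were higher in naive DKO than in naive cKO, against 8.81% of all genes tested, and the median effect was 2.03. In CD40L + IL-4 cultures 28 of the 172 were higher in DKO, against 3.06% of all genes, with a median of 0.384. The difference between the stages was called lower for 101 (58.7%) there, against 3.42% of all genes. Fads2 was at 0.679 and 1.82 CPM in naive PU.1 cKO and at 35.8 and 34.4 CPM in naive DKO, and between 20.9 and 32.5 CPM in the 4 cultured libraries. Ctsb was at 217 and 242 CPM against 1037 and 970.4 CPM in naive cells, and between 126 and 151 CPM in the cultures. Fyn was at 44.4 and 45.0 CPM against 176 and 186 CPM in naive cells, and at 105 and 106 CPM against 143 and 144 CPM in the cultures. In LPS + IL-4 cultures 8 of the 172 were higher (4.65%) and 4 lower (2.33%), against 1.38% and 0.446% of all genes tested there, with a median of -0.0213. With the replicate block 9 were higher and 9 lower, against 2.38% and 0.855% of all genes.

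**Figure D4:**
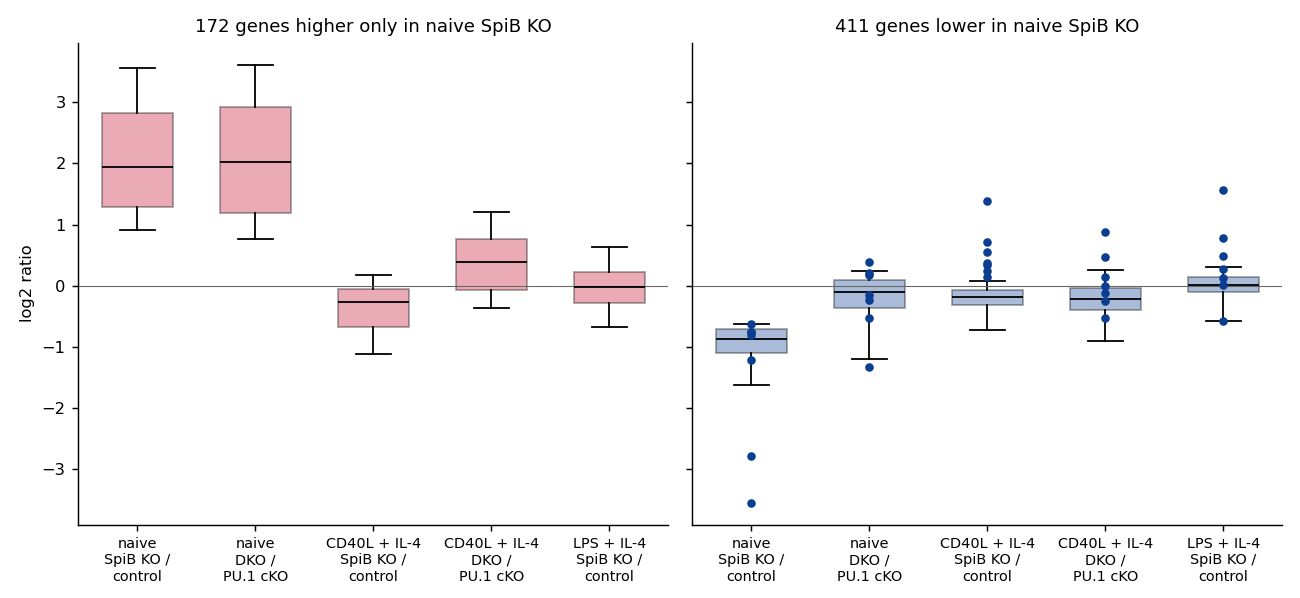
Log2 ratios on the vertical axis for 5 contrasts that each compare 2 libraries with 2. Boxes span the quartiles with the median, whiskers the 10th to 90th percentiles, and dots on the right the 7 genes lower only in naive SpiB KO; the 172 genes on the left have medians of 1.93 and 2.03 in the naive contrasts, and the 411 genes on the right have -0.867 in naive SpiB KO and -0.109 in naive DKO against cKO.

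Markers of pDCs moved with these increases. The cell type and pathway lists were written with earlier results of these data known, so their counts are a description and not independent support. All 16 genes of the pDC list were tested. Of these, 15 were higher in naive SpiB KO (Irf7 was not) and none was lower, against 5.3% and 3.06% of all genes tested. Their median effect was 2.55. Their summed level was 750 to 918 CPM in naive control and 3013 to 3577 CPM in naive SpiB KO, and 692 to 771 CPM in naive PU.1 cKO and 3820 to 4062 CPM in naive PU.1 SpiB DKO. In the cultures it was 493 to 502 CPM in control and 394 to 516.5 CPM in SpiB KO, none of the 16 passed, and 2 to 4 of them were at 0 in every library. Siglech, a receptor that defines mouse pDCs, was at 61.3 and 24.5 CPM in naive control and at 250.5 and 212 CPM in naive SpiB KO, and did not exceed 0.468 CPM in the cultures. Ccr9 was at 29.0 and 8.90 CPM against 145 and 152 CPM and stayed under 0.75 CPM in the cultures. For 12 of the 16 pDC genes the difference between the stages was not called.

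The difference passed for 4 pDC genes, Ly6c2, Bst2, Mctp2 and Pld4. Ly6c2, a GPI-anchored surface protein, was at 73.9 and 43.4 CPM against 1006 and 764 CPM in naive cells and under 0.6 CPM in the cultures (difference -4.60 ± 1.01, adjusted p = 0.0451). Bst2, or tetherin, was at 155 and 115 CPM against 618 and 463 CPM, and between 20.4 and 27.5 CPM in the cultures (difference -2.13 ± 0.27, adjusted p = 0.00112). Pld4, an endolysosomal exonuclease that B cells express too, was at 235 and 211 CPM against 433 and 402 CPM, and between 99.8 and 181 CPM in the cultures (difference -1.16 ± 0.27, adjusted p = 0.0613). Irf8, a partner of PU.1 and SpiB that pDCs also express, was higher in naive SpiB KO (0.72 ± 0.12, adjusted p = 0.00249) with a difference that did not pass (-0.60 ± 0.18, adjusted p = 0.215).

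In bulk libraries, more cells of a type and more RNA per cell cannot be told apart. Among the 172 genes, 140 (81.4%) were higher in naive control replicate 1 than in replicate 2, against 54.1% of all genes tested. Siglech, Ccr9 and Ly6c2 were higher in naive control replicate 1 too. How much of the increases in naive SpiB KO goes with the pDC level was not tested.

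Some genes of other cell type lists were called too, where 5.3% of all genes tested were higher and 3.06% lower in naive SpiB KO. The summed naive levels of the conventional dendritic cell list and of the macrophage and monocyte list overlapped between control and SpiB KO. The T cell list had 10 genes tested of 14, and 5 were higher in naive SpiB KO (Cd28, Cd4, Cd8a, Cd8b1 and Zap70), with a summed level of 80.8 to 131 CPM in naive control and 445 to 536.5 CPM in naive SpiB KO. Cd8a, a co-receptor chain that dendritic cells can also carry, was at 12.8 and 2.41 CPM against 244 and 185 CPM in naive cells and under 1.8 CPM in the cultures (difference -6.16 ± 1.28, adjusted p = 0.0379). Cd3d, which defines T cells, was between 0.584 and 1.26 CPM in the 4 naive libraries. Conventional dendritic cell genes summed to 373 to 459 CPM against 429 to 484 CPM, with 3 of 8 tested genes higher (Clec9a, Flt3 and Itgax). Macrophage and monocyte genes summed to 246 to 249 CPM against 219 to 261 CPM, with Cd68 the only 1 of 8 tested that was higher, and NK cell and cytotoxic genes to 107 to 218 CPM against 235 to 332 CPM, with 2 of 11 higher. No neutrophil gene was tested, and their sum was under 0.9 CPM in the 4 naive libraries. The plasma cell list had 2 of 13 higher (Cd28 and Sdc1), the B1 cell list 3 of 9, and the marginal zone list 1 of 9 (S1pr3). The mature B cell list summed to 15870 to 15890 CPM in naive control and to 13000 to 13260 CPM in naive SpiB KO, with Cd22 and Fcer2a lower among its 12 genes, and to 7091 to 9561 CPM in the cultures.

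**Figure D5:**
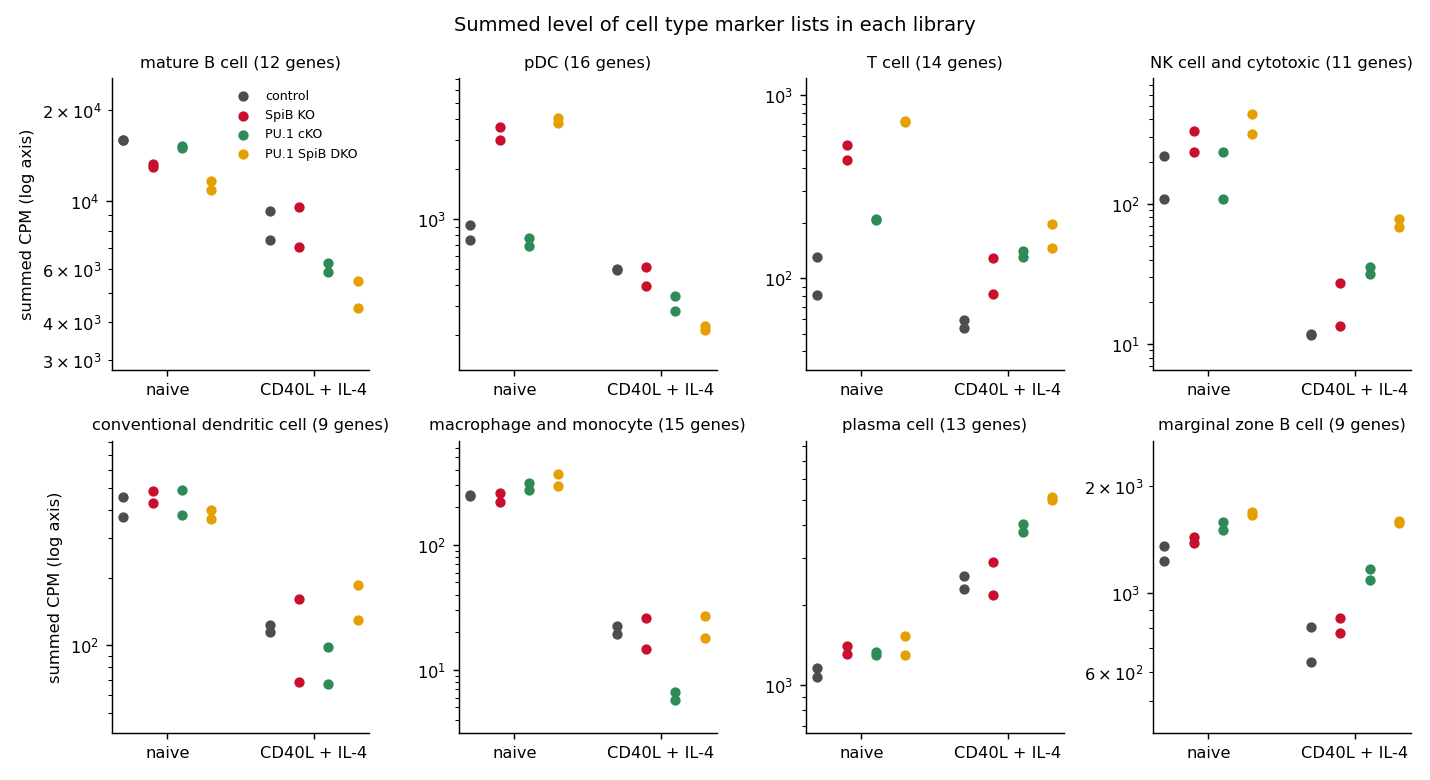
Summed CPM (log axis) of 8 marker lists in each naive and CD40L + IL-4 library, 2 points per genotype. The pDC genes stand at 3013 to 4062 CPM in the 4 naive libraries without SpiB and at 692 to 918 CPM in the 4 naive libraries with it, and the cultured libraries lie between 214 and 516.5 CPM.

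The pathway lists are given by their counts, to be read against the 5.3% of all genes tested that were higher and the 3.06% lower in naive SpiB KO, and the 1.49% with a called difference. Of 32 BCR signalling genes, 3 were lower in naive SpiB KO (Cd22, Inpp5d and Itpr3) and 1 was higher (Fyn), and Fyn alone had a called difference. Cd22, an inhibitory co-receptor, was at 576 and 961 CPM in naive control and at 422 and 510.2 CPM in naive SpiB KO, and at 799 and 812 CPM against 1069 and 715 CPM in the cultures (difference 0.87 ± 0.36, adjusted p = 0.513). No gene passed at either stage among 20 Toll-like receptor pathway genes, 18 of MHC class II and costimulation, 15 heat shock genes and 8 GIMAP GTPases. Among 22 immediate early genes 4 were lower in naive SpiB KO (Dusp1, Jun, Junb and Ppp1r15a) and none had a called difference. Junb, an AP-1 subunit, was at 434 and 247 CPM against 184 and 154 CPM in naive cells and between 82.3 and 97.0 CPM in the cultures (difference 1.03 ± 0.28, adjusted p = 0.15). The median of this list was -0.448 in naive cells and 0.0231 in the cultures. These genes were among those that differed most between the naive control libraries, with Fos at 195 and 40.2 CPM. Fos differed between the naive SpiB KO libraries too, at 91.9 and 16.4 CPM, with replicate 1 again the higher.

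In the other lists, the Ets, IRF and partner factors had 2 of 32 higher (Irf8 and Tcf4) and 3 lower (Ikzf3, Pou2f2 and Spib), and the cytokine receptors and STATs 5 of 26 higher and 1 lower (Il6ra), with Ifnar2 the only called difference. Among homing and adhesion receptors 2 of 22 were higher (Cd44 and S1pr3) and Rgs1 was lower, and among Fc and inhibitory receptors 3 of 17 were higher and 2 lower. Interferon-stimulated genes had 2 of 27 higher (Bst2 and Ifi44) and 2 lower (Oas1a and Oas2), the TNF receptor superfamily and TRAFs 3 of 17 higher, the quiescence and trafficking regulators 1 of 20 in each direction, and the cell cycle list 1 of 28 higher (Cdk1). With lists this short, such counts are given as a description beside the same 5.3% and 3.06% of all genes tested.

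Of the 25 genes that changed the same way at both stages, 12 lay within 10 Mb of Spib on chromosome 7 (48%), Spib included, against 1.15% of all genes tested, and none of the 5 genes with a known position among the 7 lower only in naive SpiB KO lay there. In that window Ftl1, a ferritin light chain gene, was at 184 and 169 CPM against 5.10 and 5.19 CPM in naive cells and at 282 and 363 CPM against 12.4 and 6.90 CPM in the cultures. Htatip2 was at 17.1 and 15.1 CPM against 0 and 0.114 CPM in naive cells, and at 27.0 and 28.3 CPM against 0 in both cultured SpiB KO libraries, which was at least 210-fold lower when 3 counts over the group were taken as the floor. Mybpc2 and Dhdh rose at both stages. The others were Pold1, Gm15545, Rcn3, Slc6a16, Klk8, Trpm4 and Siglec5. For this window, the loss of SpiB and sequence inherited with the null allele cannot be told apart. Outside it, Gm20746 was at 1.28 and 1.09 CPM against 49.6 and 41.9 CPM in naive cells and at 1.08 and 1.5 CPM against 34.9 and 36.8 CPM in the cultures, Scn2b, a sodium channel subunit gene, rose at both stages too, and Nxpe2 fell at both.

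Zap70, the kinase of the T cell receptor, also rose at both stages. It was at 5.78 and 5.25 CPM against 16.5 and 14.2 CPM in naive cells and at 12.8 and 13.0 CPM against 46.0 and 27.6 CPM in the cultures. With 78.7 and 84.3 CPM in naive PU.1 cKO and 82.9 and 90.9 CPM in PU.1 SpiB DKO, Zap70 did not change with SpiB by the test where both groups had floxed Spi1 (adjusted p = 0.867).

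Fcer2a, which encodes the low-affinity IgE receptor CD23, was lower at both stages, with a smaller effect after culture in the main fit. It was at 1411 and 1513 CPM in naive control and at 464 and 488 CPM in naive SpiB KO, and at 968 and 1015 CPM against 605 and 564 CPM in the cultures. The effect was -1.62 ± 0.16 in naive cells (adjusted p = 1.84e-05) and -0.76 ± 0.16 in the cultures (adjusted p = 0.0841), and the difference of 0.86 ± 0.22 passed (adjusted p = 0.118). Over 18 alternative settings this difference lay between 0.591 and 0.906 and kept its call in 8. Cd23 sequences are part of the BAC that control mice alone carry here, and the neighbouring gene Trappc5, which overlaps Fcer2a, was also lower at both stages (-0.69 ± 0.15 and -0.86 ± 0.15). Where both groups carry the transgene, Fcer2a was at 864 and 933 CPM in naive PU.1 cKO and at 160 and 207 CPM in naive PU.1 SpiB DKO, an effect of -2.29 (adjusted p = 3.61e-07). In the cultures it was at 273 and 281 CPM against 244 and 331 CPM, an effect of 0.06 (adjusted p = 0.921). Between cKO and DKO, Fcer2a was thus lower in naive DKO and did not pass the test in the cultures, while Trappc5 had -0.48 (adjusted p = 0.051, fold under 1.5) in naive cells and 0.12 in the cultures.

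A further 4 genes changed in opposite directions at the 2 stages. Mpeg1, which encodes the pore-forming perforin-2, was at 222 and 116 CPM against 754 and 769 CPM in naive cells and at 16.2 and 19.5 CPM against 8.89 and 5.34 CPM in the cultures (2.17 ± 0.25 and -1.33 ± 0.30). Havcr1, which encodes the phosphatidylserine receptor TIM-1, was at 11.9 and 5.47 CPM against 40.0 and 28.3 CPM and then at 33.3 and 32.5 CPM against 7.30 and 11.3 CPM (1.97 ± 0.31 and -1.81 ± 0.31). The ephrin receptor gene Epha2 and the formin gene Fmnl2 had the same order of groups. All 4 were higher in naive SpiB KO and lower in cultured SpiB KO. In naive DKO against cKO all 4 were higher as well, and in the cultures none was lower in DKO and Fmnl2 was higher (1.54, adjusted p = 0.00291). In LPS + IL-4 cultures all 4 were lower in SpiB KO, and 3 of them passed the test (Fmnl2, Havcr1 and Mpeg1), or all 4 with the replicate block.

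Changes seen only in the cultures were few. The magnesium transporter gene Slc41a2 was at 13.4 and 17.1 CPM in cultured control and at 5.99 and 3.78 CPM in cultured SpiB KO, with 20.4 to 29.6 CPM in the 4 naive libraries (-1.64 ± 0.27 in the cultures, difference -1.85 ± 0.36, adjusted p = 0.0217). Mreg, which encodes melanoregulin, was at 84.6 and 86.3 CPM against 51.2 and 49.2 CPM in the cultures and at 14.7 to 23.7 CPM in naive cells (difference -1.21 ± 0.24, adjusted p = 0.0257). Pear1 rose from 27.0 and 23.5 CPM to 60.8 and 40.4 CPM in the cultures, with 43.7 to 49.0 CPM in naive cells (difference 1.10 ± 0.29, adjusted p = 0.139). The other members were Hyi, which fell, and Pcp4 and Gm20290, which rose. Between cKO and DKO in the cultures, Slc41a2 (-0.14, adjusted p = 0.877) and Pear1 (-0.43, adjusted p = 0.344) did not pass, and neither did Hyi or Gm20290. Pcp4 was higher in DKO, the same direction as in SpiB KO (2.65, adjusted p = 0.000364). Mreg went the other way, with 32.1 and 33.6 CPM in PU.1 cKO and 59.1 and 78.0 CPM in PU.1 SpiB DKO (1.06, adjusted p = 0.00168).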

How the data were processed

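Per the labels and methods, the authors mapped reads to the mouse genome (GRCm38) with Subread and summarised them over RefSeq exons with featureCounts, and the deposited counts are raw. The authors' deposited log2 RPKM values, quantile normalized, served only for an alternative threshold. Naive and LPS + IL-4 libraries share a deposited table and CD40L + IL-4 libraries have another, so levels, unlike effects within a stage, cannot be told apart from the table between stages. edgeR 4.0.16 (R 4.3.3; TMM, quasi-likelihood test) was fitted to the counts of 16 libraries in 8 groups, with 8 residual degrees of freedom; the filter was 0.5 CPM in 2 libraries. The LPS + IL-4 effect came from all 24 libraries (13684 genes). Replicate numbers were taken to pair the LPS + IL-4 libraries, whose same-numbered deviations correlated between 0.386 and 0.514 in 6 of 6 genotype pairs, so blocked LPS + IL-4 counts are given where they differ. A call needed a Benjamini-Hochberg adjusted p under 0.15 over all genes and a fold over 1.5. The scripts were tested on simulated data. Members and lists were chosen with earlier results of these data known. Named genes are Spib, Spi1 and Fcer2a, then by rule (10 CPM or more, no overlap in naive cells) the 8 largest differences in each naive-only class, the 4 largest culture effects per direction in the classes changed in culture, and 2 to 4 members per list; all other names, and the contrast of DKO with cKO, were chosen after values were seen. Promoters are from RefSeq (GRCm38.p6), with 10116 genes matched, and lengths from GENCODE vM21 (97.6% matched). Alternatives were DESeq2 1.42.0, limma 3.58.1 (voom), upper quartile scaling, no filter, an adjusted p under 0.05, an RPKM threshold, other library sets, a replicate block, each library left out and, chosen after seeing the data, no Rn45s.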

Additional observations from a re-analysis of the deposited data

Results flagged for a closer look

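The difference in the effect of SpiB loss between CD40L + IL-4 and naive cells passed the test for 200 genes, and each value below is that difference (log2 scale, CD40L + IL-4 minus naive) for a gene that passed it, from the edgeR fit. In the group higher only in naive SpiB KO it was -6.72 for Gdpd3, -6.16 for Cd8a, -4.60 for Ly6c2, -4.28 for Fads3, -4.24 for Fads2, -4.18 for Ppfia4, -3.85 for Pdzd4 and -3.74 for Eepd1. Among members of the cell type and pathway lists it was -2.98 for Cd28, -2.85 for Ctsl, -2.55 for Cd68, -2.31 for Grn, -2.13 for Bst2, -1.94 for Ctsb, -1.79 for Sdc1, -1.44 for S1pr3, -1.30 for Mctp2, -1.16 for Pld4, -1.04 for Fyn, -1.03 for Cd44 and -0.999 for Ifnar2. In the group lower only in naive SpiB KO it was 1.13 for Ahdc1, 0.99 for Ckap4, 0.97 for Dgka and 0.96 for Rfx1. For Fcer2a, lower at both stages, it was 0.86. Among genes changed only in the cultures it was -1.85 for Slc41a2, -1.21 for Mreg and 1.10 for Pear1. Over 18 alternative settings the call was kept in 8 for Fcer2a, Dgka, Rfx1 and Mctp2, and in 9 for Ahdc1 and Pear1. It was kept in all 18 for others, such as Fads2, Bst2 and Ctsb. No outlying sample was looked for, since each group has 2 libraries.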

How the results depend on the processing

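Both the counts of calls and their balance between higher and lower depended on the processing. The difference was called for 200 genes (13 higher, 187 lower), a single effect for 1124 naive and 47 CD40L + IL-4 genes, and 7 genes were lower and 172 higher only in naive SpiB KO. With DESeq2, 45 differences were higher, 86 genes were called in culture and 23 were lower only in naive cells. With voom there were 123 differences (6 higher, 117 lower), and 4 and 108 genes particular to naive cells. With no filter there were 589 (205 higher, 384 lower), with 199 culture calls, and 151 and 320 such genes. At an adjusted p under 0.05 there were 115 (3 higher, 112 lower), with 617 and 25 calls, and 1 and 104 such genes. With the RPKM threshold 8 differences were higher and 4 genes were lower only in naive cells. With only the 8 compared libraries there were 108 (4 higher, 104 lower), with 22 culture calls, and 2 and 94 such genes. With all 24 libraries 53 differences were higher, with 73 culture calls and 31 genes lower only in naive cells. The share of differences that were lower was 93.5%, and 65.2% with no filter, 62.5% with the block and 81.8% with all 24 libraries.

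Deviations of same-numbered libraries correlated between 0.0918 and 0.25 in naive cells (5 of 6 genotype pairs over 0.1) and between -0.0702 and 0.266 in CD40L + IL-4 (4 of 6), so replicate numbers were not taken to pair these libraries. With the replicate block there were 546 differences (205 higher, 341 lower), 83 culture calls, and 153 and 284 genes lower and higher only in naive SpiB KO.

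Leaving out 1 library at a time gave 98 to 410 differences (2 to 117 higher, 94 to 293 lower), 433 to 1726 naive and 15 to 51 culture calls, and 1 to 109 and 89 to 272 genes lower and higher only in naive SpiB KO. The extremes were without naive control replicate 1 (410 differences, 1726 naive calls) and without CD40L + IL-4 control replicate 2 (98 differences). In LPS + IL-4, 8 genes of these 2 classes changed as in naive cells, and 0 to 7 with an LPS + IL-4 library left out (0 without control replicate 2, 2 and 5 without SpiB KO replicate 1 or 2). Of the 172 genes, 84 to 158 were called again. For single genes, 2231 values kept their direction and side of the threshold, 325 lost the call and none reversed. The cause of these changes was not tested. With 2 libraries a group, a gene that passed at one stage alone is often undecided, and low culture counts limit the precision of the difference for cell markers.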
